A study of Mus musculus with 4 samples.

Results

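The 44 genes described here encode the machinery of DNA replication and S phase. They were chosen by name from what their products do, with earlier results of these data already known. Of the 44, 35 had a probe that the platform annotation gives a single gene symbol, each of these had 1 such probe, and 33 of the 35 lay in the brighter 50% of probes and were tested among 8445 genes. The probes of Pola1 and Tyms were in the dimmer 50%. Mcm3, Mcm7, Ccne2, Gins1, Gins2, Rfc3, Rfc5, Slbp and Ung were not analysed here.

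The samples were lineage-negative bone marrow, which is the stem and progenitor fraction left when cells with surface markers of mature blood lineages are depleted on magnetic columns. Wild-type marrow came from C57BL/6 females, and Mtg16-null marrow came from females that lack the corepressor gene Mtg16 (Cbfa2t3) and had been backcrossed for 4 generations (N4) into C57BL/6. All mice were 8 to 12 weeks old, and each RNA sample was a pool of marrow from 4 mice. There were 2 arrays per genotype, and each of 2 microarray lots held 1 array of each genotype. RNA levels were read on Applied Biosystems arrays with a single label, and the study concerned stem cell mobilization and progenitor proliferation. The labels do not name the parts of the gene that were deleted, do not call the wild-type mice littermates, and do not tell separate pools from 2 hybridisations of 1 pool. A p-value here therefore reflects variation among these 4 arrays alone, and that variation may be technical. A line backcrossed for 4 generations can keep donor genome around the targeted locus. The promoters of 2 tested members, Orc6 and Mcm5, lie on chromosome 8 with that of Cbfa2t3. Their distance from it was not measured, so they are known here only to share its chromosome.

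Before a cell can copy its DNA, the origin recognition complex and Cdc6 load the Mcm2-7 helicase onto origins in G1, a step called licensing that geminin (Gmnn) blocks once S phase has begun. Cyclin E with Cdk2, and the Cdc7 kinase, then fire the licensed origins by recruiting Cdc45 and the GINS complex to the helicase. Behind the opened fork the primase and polymerase alpha start each strand, the clamp Pcna is loaded by replication factor C (Rfc), polymerases delta and epsilon extend the strands, and ribonucleotide reductase, thymidylate synthase and dUTPase supply the nucleotides. Many of these genes are transcribed at the G1 to S boundary under E2F factors, and in marrow they mark cycling progenitors, erythroid precursors among them.

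Because the members may share a G1 to S control, their RefSeq promoters (build GRCm38.p6) were searched on both strands. Each window ran from 250 bases before to 50 after an annotated start. The search was for the E2F words TTTGGCGC, TTTCGCGC, TTTCCCGC and TTTGCCGC, which can overlap each other, and for CCAAT. Some genes, such as Uhrf1, have more than 1 window, and a gene counted as holding a word if any of its windows did. A promoter was found for 35 of the 44 members, of which 27 were tested. An E2F word was present in 7 of these 27 (25.9%) and in 4.67% of the 6959 tested genes that had a promoter. CCAAT was present in 16 of the 27 (59.3%) and in 43.5% of the same tested genes. These shares describe letters in a window and do not show that any factor binds. The stretches below are shown for the 3 tested members with the lowest differences in the null arrays (Cdc6, Orc1, Ccne1), for Rrm2, the remaining tested member at least 1.5-fold lower in both lots, for the helicase genes Mcm5 and Mcm6 with overlapping words, and for Cdca7, which had a higher signal in both null arrays. Each lies upstream of the start on the strand of its gene, 5′ to 3′, and capitals mark an E2F word on either strand, or CCAAT in Rrm2.
Orc1, chr4:108579394-108579453, plus strand: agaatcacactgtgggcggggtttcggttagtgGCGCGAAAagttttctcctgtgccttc
Cdc6, chr11:98907986-98908045, plus strand: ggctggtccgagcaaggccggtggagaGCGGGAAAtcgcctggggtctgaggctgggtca
Mcm6, chr1:128359736-128359825, minus strand: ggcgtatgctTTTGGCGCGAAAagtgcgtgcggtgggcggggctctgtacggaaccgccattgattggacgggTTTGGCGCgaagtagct
Mcm5, chr8:75109329-75109388, plus strand: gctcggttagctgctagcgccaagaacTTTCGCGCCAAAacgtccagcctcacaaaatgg
Cdca7, chr2:72476119-72476178, plus strand: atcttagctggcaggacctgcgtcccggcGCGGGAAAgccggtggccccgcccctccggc
Rrm2, chr12:24708174-24708233, plus strand: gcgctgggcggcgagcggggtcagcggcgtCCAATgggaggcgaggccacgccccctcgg
Ccne1, chr7:38107491-38107550, minus strand: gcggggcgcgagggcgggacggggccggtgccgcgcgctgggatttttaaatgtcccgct

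The 7 tested members with an E2F word (Orc1, Cdc6, Mcm5, Mcm6, Pold1, Uhrf1 and Cdca7) spanned the whole range of differences, from -0.93 to 0.18 on the log2 scale (null minus wild type), with a median of -0.13. The 20 without one had a median of -0.34 and ran from -0.81 to 0.00. Ccne1 and Rrm2, which were among the lowest members, held none of the 4 words in this window.

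Replication genes were slightly lower in the null arrays, in most members and in both lots. Of the 33 tested members 30 (90.9%) were lower by sign, against 52.1% of all tested genes, and 3 were higher. Their median log2 difference was -0.30, a wild-type signal 1.23-fold that of the null arrays, against a median of -0.02 over all tested genes. In bulk RNA, fewer replicating cells and less of these transcripts per cell cannot be told apart. The within-lot medians were -0.36 in lot 1 and -0.27 in lot 2. In 23 of the 33 (69.7%) the null array was lower within both lots, against 36.8% of all tested genes, and in 1, Cdca7, it was higher within both, against 33.6%. The brightest 25% of probes held 32 of the members, of which 22 (68.75%) were lower in both lots. Over all genes of those probes the share was 41.0%. Both null arrays lay below both wild-type arrays for 19 members (57.6%), against 23.1% of all tested genes, and above them for 1, against 22.6%. The differences were small, so that 4 members (12.1%) were at least 1.5-fold lower in both lots, against 5.75% of all tested genes, and 0 were as much higher, against 8.54%.

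No single member passed the test. With limma, 0 members had a Benjamini-Hochberg adjusted p under 0.05, against 0.118% of tested genes lower and 0% higher, and the smallest adjusted p of a member was 0.144. At an unadjusted limma p under 0.05 there were 6 members lower (18.2%, against 6.83% of all tested genes) and 0 higher (against 9.65%). With the array lot as a block the members lower were 8 (24.2%, against 11.0%), the members higher 0 (against 13.3%), and the smallest adjusted p 0.113. The count of 6 depends on single arrays: leaving out wild-type array 1 gave 2 (against 5.27% of all tested genes), wild-type array 2 gave 6 (against 6.77%), null array 1 gave 1 (against 3.23%) and null array 2 gave 0 (against 4.43%). With 3 arrays, groups separate more easily for every gene. Lower without overlap were 21 members without wild-type array 1 (against 37.8% of all tested genes), 30 when wild-type array 2 was left out (against 42.0%), 22 when null array 1 was (against 34.7%) and 21 when null array 2 was (against 35.3%).

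**Figure D1:**
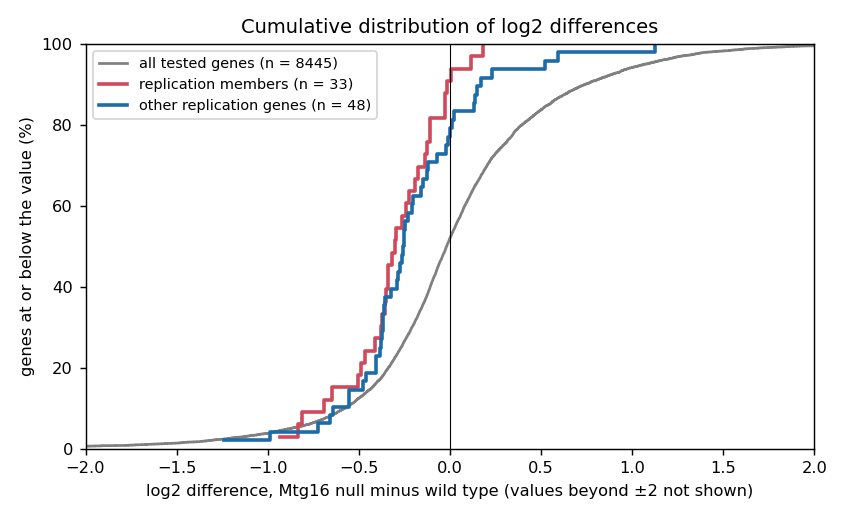
Cumulative share of genes (vertical axis, percent) at or below each log2 difference, Mtg16 null minus wild type (horizontal axis), for 33 replication members, 48 other replication genes and 8445 tested genes. The curves of the replication genes lie left of that of all tested genes around the middle, with medians of -0.30, -0.26 and -0.02.

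**Figure D2:**
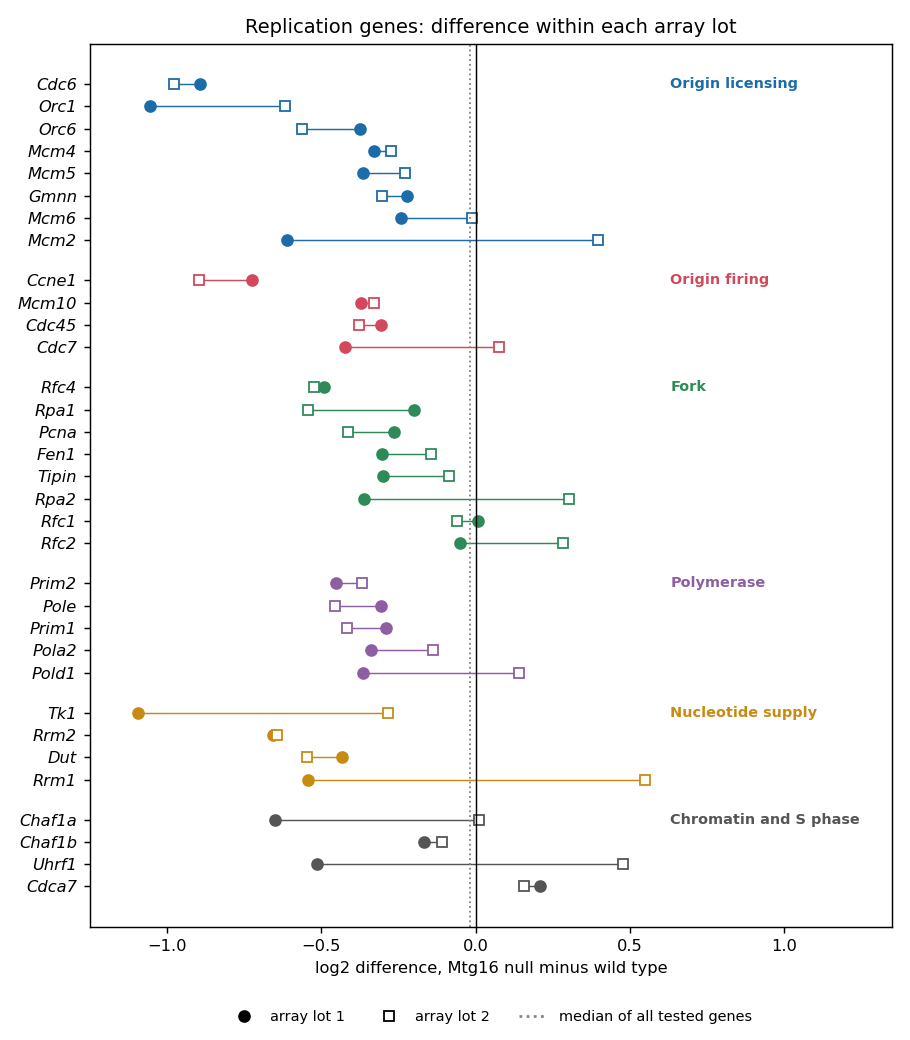
Log2 difference of each tested member (horizontal axis, null minus wild type) within array lot 1 (filled circles) and lot 2 (open squares), with members grouped by role; the dotted line is the median of all tested genes. Of the 33 members 23 lie below 0 in both lots, 1 above 0 in both and 9 on opposite sides.

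Among the licensing genes all 8 that were tested had a lower mean in the null arrays, 7 of them in both lots. Their median log2 difference was -0.30. Over all tested genes 52.1% were lower by sign, 36.8% lower in both lots and 23.1% lower without overlap. These shares also stand beside the counts by role below. Each role held 4 to 8 tested genes, and no role was tested as a set. Cdc6, the loader that recruits the helicase to the origin, read 33305 and 28938 signal units in wild-type arrays 1 and 2, and 17934 and 14704 in null arrays 1 and 2. The arrays of the genotypes did not overlap, and the difference was -0.89 in lot 1 and -0.98 in lot 2 on the log2 scale. Its fitted difference was -0.93 (SE 0.21, limma adjusted p = 0.150), a wild-type signal 1.91-fold higher, the lowest of the tested members.

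Orc1, an ATP-binding subunit that is made anew in each G1 phase in mammals, read 8895 and 6942 units in wild type against 4279 and 4529 without Mtg16. The null arrays lay close together and well below the wild-type arrays (fitted at -0.84 with SE 0.21, limma adjusted p = 0.188), although lot 1 gave -1.06 and lot 2 -0.62. Orc6, the smallest subunit of the same complex, read 128433 and 154117 units in wild type against 99171 and 104487, a log2 difference of -0.47 without overlap. Gmnn, the licensing inhibitor, went the same way by a smaller step, from 89043 ± 3739 to 74370 ± 6076 units (mean ± SD, n = 2 arrays), a log2 difference of -0.26. The loading factors and their inhibitor thus had the same sign.

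The 4 tested subunits of the Mcm2-7 helicase had differences between -0.30 and -0.11. Mcm4 read 161338 and 172113 units in wild type against 128365 and 142473 in the null arrays, with no overlap and a log2 difference of -0.30. Mcm5 had a difference of -0.30, with -0.36 and -0.23 in lots 1 and 2, but its wild-type array 2 lay within the range of the null arrays. For Mcm6 the difference was -0.13, of which -0.24 in lot 1 and -0.01 in lot 2. Mcm2 had no agreed direction: wild-type arrays of 9549 and 4905 units enclosed the null arrays of 6247 and 6458, so that lot 1 gave -0.61 and lot 2 gave 0.40. Without wild-type array 1 the Mcm2 difference was 0.37, and without wild-type array 2 it was -0.59.

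Origin firing genes gave a median log2 difference of -0.35 over 4 tested members. Ccne1, the cyclin E subunit that drives entry into S phase, had the tightest wild-type pair of the larger differences, 53376 and 53781 units, against 32287 and 28895 in the null arrays. The fitted difference was -0.81 (SE 0.17, limma adjusted p = 0.144), a 1.75-fold higher wild-type signal, and lots 1 and 2 gave -0.73 and -0.90. Its call depends on the fit, since the adjusted p was 0.0479 when a variance trend was fitted and 0.0482 when only the brightest 25% of probes were kept, in a range of 0.0479 to 0.645 over the alternatives tried. Mcm10, a scaffold that activates the loaded helicase, and Cdc45, its essential cofactor, had nearly equal differences of -0.35 and -0.34, each without overlap. Cdc7, the kinase that phosphorylates the Mcm complex, was lower in lot 1 (-0.42) but not in lot 2 (0.08), and its fitted difference of -0.17 became 0.01 without null array 1.

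**Figure D3:**
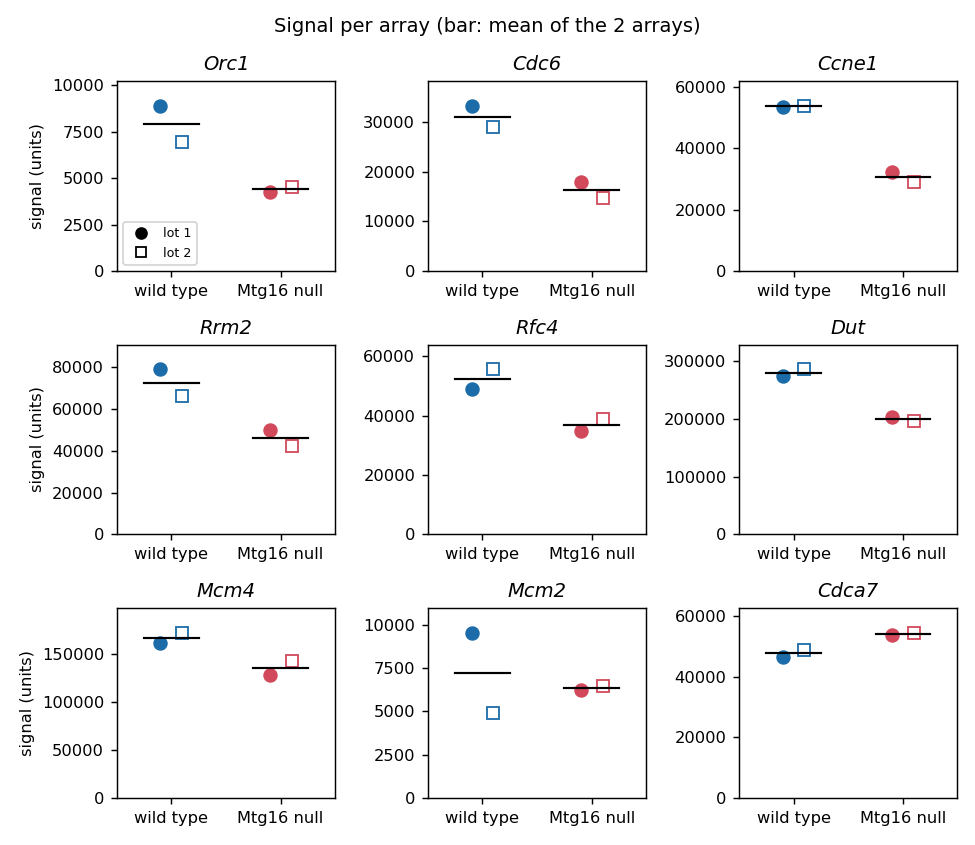
Signal per array (vertical axis, signal units, starting at 0) of 9 members in wild type (blue) and Mtg16 null (red), with lot 1 as filled circles, lot 2 as open squares and the mean of the 2 arrays as a bar. Orc1, Cdc6, Ccne1, Rrm2, Rfc4, Dut and Mcm4 separate by genotype with the null arrays lower, Cdca7 separates with the null arrays higher, and the wild-type arrays of Mcm2 lie on either side of the null arrays.

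Fork genes were mixed, with a median log2 difference of -0.21 over 8 tested members. Of these 7 were lower by sign, against 52.1% of all tested genes, and 4 without overlap, against 23.1%. Rfc4, a subunit of the clamp loader, read 49160 and 55648 units in wild type against 34995 and 38739 in null arrays 1 and 2. The 2 lots agreed closely for it, at -0.49 and -0.52 (fitted -0.51, SE 0.18, limma adjusted p = 0.301). The other loader subunits with a tested probe had values near 0 and overlapping arrays. Rfc2 had 0.12, with -0.05 in lot 1 and 0.28 in lot 2, and Rfc1, the large subunit, had -0.03. Rfc2 was at -0.13 without wild-type array 2, and Rfc1 at 0.22 without that array or 0.18 without null array 1.

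Pcna, the sliding clamp, differed more between lots than between genotypes. It read 312760 and 473834 units in wild type against 260679 and 355581 in null marrow, so the genotypes overlapped, while the difference within lots was -0.26 and -0.41. Rpa1, the large subunit of the single-strand binding protein, had a difference of -0.37 without overlap, whereas Rpa2, its partner, had -0.03, with -0.36 in lot 1 and 0.30 in lot 2. Fen1, the flap nuclease of Okazaki fragment processing, and Tipin, which stabilises stalled forks with Timeless, had differences of -0.22 and -0.19 without overlap.

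All 5 tested polymerase genes were lower by sign, against 52.1% of all tested genes, with a median log2 difference of -0.35. Prim2 and Prim1, the large and the catalytic subunit of primase, had differences of -0.41 and -0.35, and both were lower in the 2 lots. Prim1 read 35262 and 43135 units in wild type, against 28828 and 32287. Pole, the catalytic subunit of the leading-strand polymerase, read 25163 and 26388 units in wild type against 20349 and 19238, a difference of -0.38 with little spread in either genotype. Neither primase subunit nor Pole overlapped between genotypes. Pola2, the accessory subunit of polymerase alpha, had a difference of -0.24 with overlap, and Pold1, the catalytic subunit of polymerase delta, had -0.11, with -0.36 in lot 1 and 0.14 in lot 2. Pola1, the catalytic subunit of polymerase alpha, had a dim probe with 538 and 421 units in wild type against 177 and 330. The Pola1 arrays did not overlap, but this probe was outside the test.

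Nucleotide supply genes had the lowest median of the 6 roles, -0.57 over 4 tested members. Of these 3 were lower without overlap, against 23.1% of all tested genes. Rrm2, the small subunit of ribonucleotide reductase that is made in S phase, read 79091 and 66313 units in the wild-type arrays against 50179 and 42460. Both lots gave nearly the same difference, -0.66 and -0.64 (fitted -0.65, SE 0.21, limma adjusted p = 0.260), a wild-type signal 1.57-fold higher. Dut, the dUTPase that keeps uracil out of DNA, read 273806 and 285805 units with Mtg16 against 202958 and 195542 without it, and the pairs lay tightly around a difference of -0.49 (SE 0.17, limma adjusted p = 0.283). Tk1, the thymidine salvage kinase of S phase, had a fitted difference of -0.69 (SE 0.26, limma adjusted p = 0.320), but lot 1 gave -1.09 and lot 2 -0.28.

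Rrm1, the large subunit of ribonucleotide reductase, had no agreed direction. Its 4 arrays read 7663 and 4727 units in wild type against 5262 and 6920, with the lots at -0.54 and 0.55, for a fitted difference of 0.00. Tyms, thymidylate synthase, had a dim probe that was not tested, with 174 and 143 units in wild type against 169 and 153. The Tyms arrays of the genotypes overlapped.

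Genes of chromatin assembly and maintenance had the median nearest to 0 of the 6 roles, -0.08 over 4 tested members. Of these 0 were lower without overlap, against 23.1% of all tested genes. Cdca7, a chromatin factor induced with the cell cycle, read 46557 and 48868 units in wild type against 53781 and 54466 in null marrow, fitted at 0.18 on the log2 scale (SE 0.17, limma adjusted p = 0.694). It was the member with a higher signal in both lots. Chaf1b, the middle subunit of the histone chaperone CAF-1, had -0.14 with overlap, and Chaf1a, the large subunit, had -0.32, of which -0.65 in lot 1 and 0.01 in lot 2. Uhrf1, which brings the maintenance DNA methyltransferase to new DNA, read 12078 and 6694 units in wild type around null arrays of 8456 and 9326, a difference of -0.02.

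**Figure D4:**
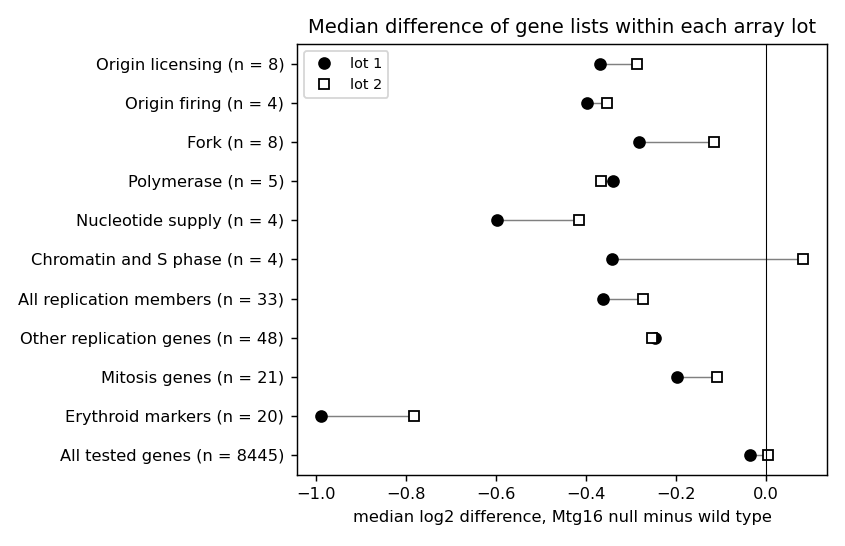
Median log2 difference, null minus wild type, of each role, of all members, of other replication genes, mitosis genes and erythroid markers, and of all tested genes, within lot 1 (filled circles) and lot 2 (open squares). Nucleotide supply lies at -0.60 and -0.42, chromatin and S phase genes at -0.34 and 0.08, and all tested genes at -0.04 and 0.01.

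The 9 members whose lots had opposite signs were Mcm2, Cdc7, Rpa2, Rfc1, Rfc2, Pold1, Rrm1, Chaf1a and Uhrf1. In 7 of these, all but Rfc1 and Cdc7, wild-type array 2 was lower than wild-type array 1 by 0.48 to 0.96 on the log2 scale. Over all 33 members the median of wild-type array 2 minus array 1 was -0.20, against -0.03 over all tested genes, and the same median for the null arrays was 0.01. The difference between the wild-type arrays was larger than the fitted genotype difference in 12 of the 33 members, against 4717 of all 8445 tested genes. Without wild-type array 1 the differences of Mcm2, Uhrf1, Rpa2, Pold1, Chaf1a and Chaf1b were 0.37, 0.41, 0.45, 0.28, 0.16 and 0.04. Without it the median over the members was -0.22, and without wild-type array 2 it was -0.42.

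**Figure D5:**
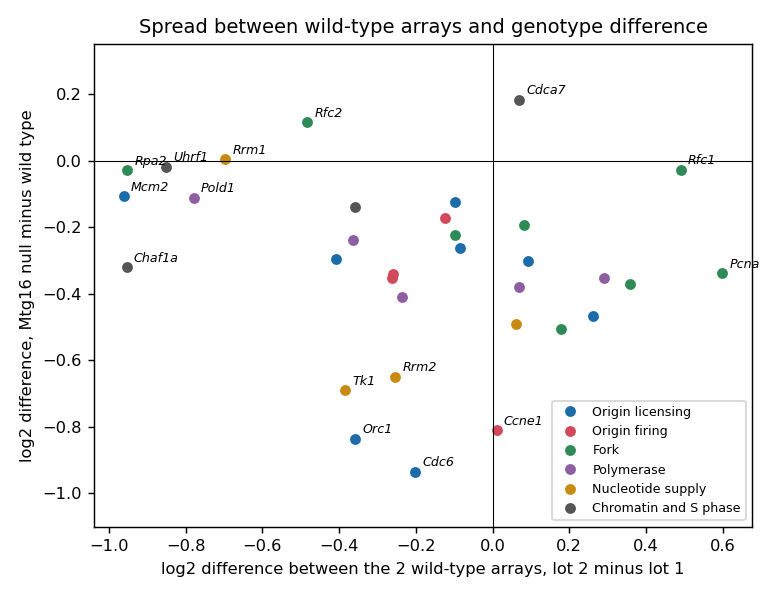
Fitted log2 difference of each member, null minus wild type (vertical axis), against the log2 difference between the 2 wild-type arrays, lot 2 minus lot 1 (horizontal axis), coloured by role. Mcm2, Rpa2, Chaf1a, Uhrf1, Pold1 and Rrm1 lie at the left, where wild-type array 2 was lowest, with fitted differences from -0.32 to 0.00, while Ccne1 has almost equal wild-type arrays.

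Replication genes outside the 44 were also mostly lower by sign. Of 63 further genes listed, 48 were tested, and 37 of these were lower and 11 higher by sign, with a median log2 difference of -0.26. The share lower by sign over all tested genes, 52.1%, also stands beside the counts by list below. In 34 of the 48 (70.8%) the difference was lower in both lots, against 36.8% of all tested genes, and 0 passed limma at an adjusted p under 0.05 (5 lower and 2 higher at an unadjusted p under 0.05, against 6.83% and 9.65% of all tested genes). With the lot as a block these were 9 lower and 3 higher, against 11.0% and 13.3%. By list, 11 of 14 licensing and firing genes were lower by sign (median -0.28), 14 of 16 fork and polymerase genes (median -0.30), 9 of 12 nucleotide supply genes (median -0.20) and 3 of 6 chromatin assembly genes (median -0.06). The 4 lowest in both lots were Recql4, Dscc1, Orc5 and Timeless. Recql4, a helicase that acts in replication initiation, averaged 7583 ± 1352 units (SD over n = 2) with Mtg16 against 3187 ± 301 without it, fitted at -1.24 on the log2 scale (SE 0.22, limma adjusted p = 0.113). That adjusted p was 0.0467 when a variance trend was fitted and 0.0290 when only the brightest 25% of probes were kept.

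Dscc1, a subunit of an alternative clamp loader, had a difference of -0.99. Timeless, the fork protection partner of Tipin, had -0.73 with its brightest probe and -0.53 as the mean of its kept probes. The origin recognition subunit Orc5 had -0.66. Cdt1, which loads the helicase together with Cdc6, had -0.56 and was named after its values were seen. Dck, a nucleotide supply gene, was lower than Cdt1 at -0.64. The 4 highest in both lots were Shmt1, Dctpp1, Pold4 and Rrm2b, of which 3 serve nucleotide supply and Pold4 is the smallest subunit of polymerase delta. Shmt1, the cytosolic serine hydroxymethyltransferase that feeds thymidylate synthesis, averaged 1701 ± 364 units (SD over n = 2) with Mtg16 against 3740 ± 1038 without it, fitted at 1.13 on the log2 scale (SE 0.30, limma adjusted p = 0.208). Dctpp1, a dCTP pyrophosphatase, went from 89018 ± 305 to 134489 ± 7383 units, a log2 difference of 0.59. Rrm2b, the p53-inducible alternative to Rrm2, had 0.17, opposite in sign to Rrm2.

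Mitosis genes, whose products act after replication is complete, had small differences. Of 21 tested, 15 were lower by sign (against 52.1% of all tested genes), 10 of them in both lots (47.6%, against 36.8%). Their median was -0.10, with values from -0.34 to 0.17. At an unadjusted limma p under 0.05 there were 0, against 6.83% of all tested genes lower and 9.65% higher. The difference between the mitosis and the replication genes was not tested.

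Markers of several cell types moved with genotype in the same arrays, and their part in the replication differences was not tested. All 20 tested erythroid markers were lower in both lots (median -0.84), and the summed signal of the 21 with a probe was 3360560 and 2427580 units in wild type against 1718960 and 1520240 in the null arrays. All 11 late neutrophil markers were lower (median -3.64), with sums of 1369470 to 1485620 units in wild type against 148105 to 158427 in the null arrays. All 10 early granulocyte markers were higher by sign (median 1.74), with sums of 1883830 to 1897880 units in wild type against 3762960 to 4395100 in the null arrays. By sign, markers were higher for 7 of 8 megakaryocyte, 8 of 13 stem and multipotent, and 10 of 11 lymphoid and B cell genes. The same held for 5 of 7 T and natural killer, 4 of 5 monocyte and macrophage, and 4 of 6 stromal and endothelial genes. Among all 8445 tested genes 4049 were higher by sign, 52.1% were lower by sign and 36.8% were lower in both lots. Wild-type array 2 was lower than array 1 in the erythroid, early granulocyte, lymphoid and B cell, monocyte and macrophage, and stromal and endothelial sums. It was higher in the late neutrophil, megakaryocyte, stem and multipotent, and T and natural killer sums. Some of these steps were very small. In wild-type arrays 1 and 2 the megakaryocyte sums were 492349 and 492480 units, and the early granulocyte sums 1897880 and 1883830 units. The median of wild-type array 2 minus array 1 was -0.31 for erythroid and -0.32 for early granulocyte genes. Any tie to the split of the members was not tested. No marker probe read 0, but no probe on these arrays did, since the lowest value was 28.2 units. This does not show that a marker was detected. The progenitor genes Kit and Cd34 had tested probes, and the T cell genes Cd3d, Cd3e and Cd4 lay in the dimmer 50% of probes while Cd3g did not.

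Each array gave 33012 probe signals with a common median of 470 units. The Cbfa2t3 probe did not check the labels: it averaged 90555 units with Mtg16 against 107046 in null marrow, and its place relative to the deletion is not given in the sources used here.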

How the data were processed

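Signals were measured on 4 single-colour arrays. The authors deposited probe intensity on a linear scale, already brought to one distribution: after sorting, the 4 columns differ by no more than 0.286%. No header or label names the scanner software or background correction. Detection calls were not analysed here. Signals under the 1st percentile (75.8 units) were raised to it, log2 was taken, and probes in the upper 50% of mean log2 signal were kept (16506). Among probes with 1 gene symbol, the brightest by mean signal stood for each gene, which left 8445 genes. Null minus wild type was fitted with limma 3.58.1 in R 4.3.3 (lmFit, eBayes; 2 residual and 2.11 prior degrees of freedom) and Benjamini-Hochberg adjusted over all genes at 0.05. The script was tested on simulated data. Alternatives were the lot as a block, other filters, floor, prior, probe rule and normalization, and each array left out. An exact permutation test of 2 arrays against 2 cannot go below 0.333, so none is given. The series text ties a replicate number to its lot, so numbers pair arrays; deviations of same-lot arrays from their group means correlated at 0.50 over all genes, 0.41 over the members. All members are named. Other replication genes were named as the 4 with the largest smaller within-lot difference per direction. Cdt1 and Dck were added after their values were seen. Members and lists were chosen with earlier results of these data known. Array number limits the precision. Figures: matplotlib 3.10.9.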

Additional observations from a re-analysis of the deposited data

How the results depend on the processing

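Of 459 values of named genes other than Cdt1 and Dck recomputed under the alternatives, 438 kept their direction and their side of the threshold. Another 17 values, of 10 genes, reversed direction, and 4 values, of 2 genes, passed the threshold. The lot block, variance trend, filters and floor left the fitted differences of these genes unchanged. A direction could therefore change only with cyclic loess, the probe rule or an array left out. The median over the members stayed below 0 under every alternative tried, and with an array left out it ran from -0.42 to -0.22. Genes past limma over all genes numbered 0 with the replicate block and 0 without the filter on dim probes, where fewer members, 3, had an unadjusted p under 0.05 and lower signal. They numbered 295 when a variance trend was fitted and 291 when only the brightest 25% of probes were kept, and each of these called 1 member (Ccne1) and 1 other replication gene (Recql4); the trend gave 10 members at an unadjusted p under 0.05. The replicate block changed no other call and moved no member count by over 1.5 times, but the other replication genes lower at an unadjusted p under 0.05 went from 5 to 9. With an array left out, 0 genes passed, 678 to 1438 genes and 0 to 6 members lower had an unadjusted p under 0.05, and 21 to 30 members were lower without overlap, where 34.7% to 42.0% of all tested genes were. Differences of 10 members changed sign with an array left out, in the ranges -0.36 to 0.014 (Cdc7), -0.80 to 0.16 (Chaf1a), -0.32 to 0.041 (Chaf1b), -0.59 to 0.37 (Mcm2), -0.50 to 0.28 (Pold1), -0.27 to 0.22 (Rfc1), -0.13 to 0.36 (Rfc2), -0.50 to 0.45 (Rpa2), -0.34 to 0.35 (Rrm1) and -0.44 to 0.41 (Uhrf1). Rrm1 was also at -0.0041 with cyclic loess. The cause was not tested. Counts over both lots have no value with an array left out. Without detection calls, signal over background limits dim probes.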
